A study of Mus musculus with 5 samples.

Results

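Cells that carried both Krt5 and Scgb3a2 transcripts were examined in 5 single-cell RNA sequencing libraries of mouse trachea. A cell belonged to them if it held at least 2 Krt5 UMIs (unique molecular identifiers, 1 per captured transcript) and at least 10 Scgb3a2 counts per 10000 mouse UMIs of the cell (CP10k). It also had to hold under 2 Foxj1 UMIs, under 10 CP10k of Krt13 and under 3 UMIs of Mki67 and Top2a together, which leaves out ciliated, hillock and dividing cells. These limits were met by 1074 of the 6602 cells kept, 16.3%. Their number was 46 of 1700 donor-derived cells at day 40, 228 of 1735 donor-derived cells at day 56, 373 of 1323 endogenous cells at day 40, 276 of 1228 endogenous cells at day 56 and 151 of 616 control cells. The members were chosen by their own transcript levels, so their Krt5 and Scgb3a2 are given as a description.

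The hosts were adult wild type mice of strain 129 X1/S1. Recipients were given 2% polidocanol, a detergent that strips the surface epithelium, into the trachea, and 5 h later 6e6 iBCs, basal cells derived from mouse embryonic stem cells, were placed in the same airway. Tracheas were taken 40 or 56 days later and digested with pronase, and cells in the Calcein Blue+/GFP+ gate (donor-derived) and the Calcein Blue+/GFP- gate (endogenous, the host's own cells after the same injury) were loaded on a 10x Chromium. There was 1 recipient for each day, and its 2 libraries come from the same animal. The control was the Calcein Blue+ cells of 1 trachea with neither injury nor transplant. Each group therefore holds at most 2 animals that also differ in day, a line of donor cells is represented by 2 engraftments, and comparisons with the control have no test.

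Basal cells are the stem cells of the tracheal epithelium. They sit on the basement membrane, carry the keratin Krt5 and the transcription factor Trp63, and give rise to secretory (club) cells under Notch signalling. Club cells release secretoglobins, of which Scgb1a1 is the most abundant and Scgb3a2 a smaller relative, and they hold many enzymes that process foreign compounds. A cell in transit between both states is usually pictured with a mixture of basal and club transcripts and with Krt8 or Krt4.

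The kept cells of a library held a median of 10028 to 12797 mouse UMIs, and the members 8665 (control) to 13512 (donor-derived, day 40). The members' summed counts came to 814916 and 2747128 UMIs in the donor-derived libraries, 4472867 and 3495011 in both endogenous libraries, and 1497080 for control cells, so values for donor-derived cells at day 40 are the least precise. Kept cells of any 2 libraries shared at most 2 cell barcodes and members shared 0. Within a group, 4.76% of genes of at least 50 CPM were 2-fold apart between the donor-derived libraries and 0.919% between the endogenous ones. CPM here are counts scaled to 1000000 mouse UMIs over the summed members of a library. Values near 1 CPM therefore rest on a few UMIs.

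The share of Krt5 cells that also reached the Scgb3a2 limit set the libraries apart. Krt5 cells are counted here with the same limits on Foxj1, Krt13, Mki67 and Top2a. It was 6.38% (46 of 721, exact Clopper-Pearson 95% interval 4.71 to 8.42) in donor-derived cells at day 40 and 21.5% (228 of 1061, 19.1 to 24.1) at day 56. In endogenous cells it was 76.9% (373 of 485, 72.9 to 80.6) at day 40 and 77.3% (276 of 357, 72.6 to 81.6) at day 56. In the control it was 93.8% (151 of 161, 88.9 to 97.0). Both donor-derived libraries lay below both endogenous ones, and the control lay highest. With every cell thinned to 5000 UMIs, leaving out 26, 61, 80, 85 and 0 shallower cells in the same order of libraries, the shares were 5.68%, 21.5%, 78.3%, 77.0% and 92.9%. The intervals cover counting error only, and 2 libraries against 2 cannot go below p = 0.333 in a two-sided exact permutation test, so no test is given. The digestion and the sort decide which cells enter a library, and their part in these shares was not tested.

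**Figure D1:**
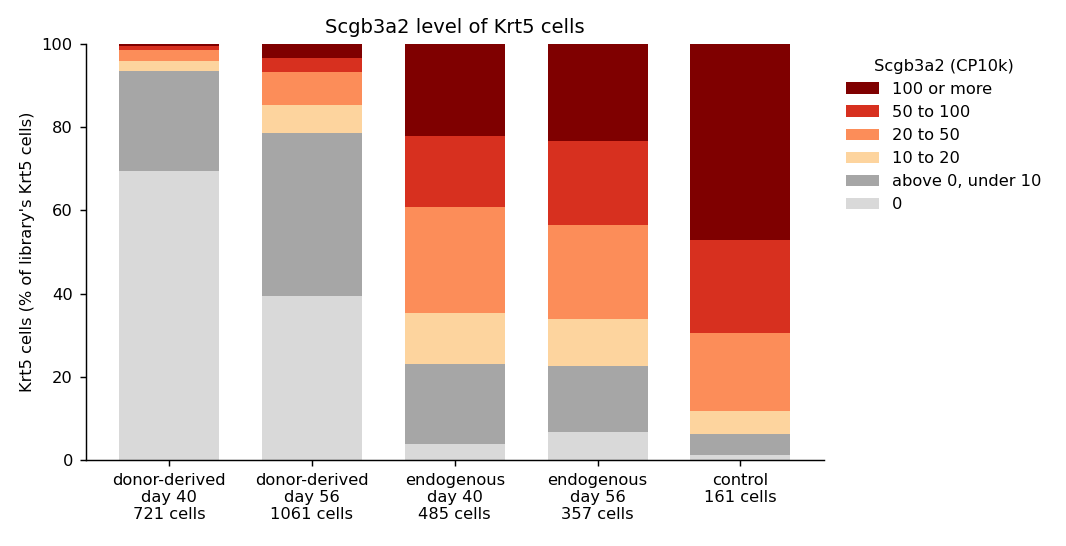
Stacked bars of the Krt5 cells of each library (vertical axis, % of them) by their Scgb3a2 level in CP10k; grey parts are below the limit of 10 CP10k. Cells with no Scgb3a2 UMI make up 69.5% and 39.5% of donor-derived Krt5 cells but 3.71%, 6.72% and 1.24% of endogenous (day 40, day 56) and control ones.

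Krt5 cells showed no gap in Scgb3a2 at the limit. Just outside it, at 8 to 10 CP10k, lay 8, 23, 14, 3 and 1 Krt5 cells of the 5 libraries in the order above, and just inside, at 10 to 12 CP10k, lay 3, 16, 14, 8 and 0. The members' median Scgb3a2 was 27.0 and 31.3 CP10k in donor-derived cells at days 40 and 56, 51.4 and 58.9 in endogenous cells and 101 in control cells, with single cells between 10.0 and 560 CP10k. Their median Krt5 was 10.8, 11.2, 13.5, 13.3 and 10.9 CP10k. Secretory-gate cells, which meet the Scgb3a2 limit with under 2 Krt5 UMIs, carried more Scgb3a2, with means of 99.0 and 161 CP10k in donor-derived and 330 and 327 CP10k in endogenous libraries.

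Scgb1a1 and other markers were set beside the name of basal-to-secretory intermediates, and in host cells these markers were mixed. Scgb1a1 was low in most endogenous members. The median Scgb1a1 of members was 4.14 and 4.30 CP10k in the endogenous libraries, while that of endogenous secretory-gate cells was 2220 and 2718 CP10k. Immune cells (Ptprc present, no Epcam, under 2 Krt5 UMIs), which do not make Scgb1a1, had medians of 5.27 and 4.92 CP10k in the same libraries, and the members' medians lay no higher. Free RNA was not measured, so its part in these low levels was not tested. Median depths behind these values were 11191 and 12153 UMIs in members and 7279.5 and 6443 in immune cells. The Scgb3a2 limit of 10 CP10k, which every member meets by the rule, was reached by 1 of 136 immune cells of day 40, and the highest of 226 immune cells of day 56 had 9.19 CP10k. Per Scgb1a1 UMI, secretory-gate cells held 0.148 and 0.127 Scgb3a2 UMIs in the endogenous libraries and immune cells 0.111 and 0.0942. All members together held 1.21 and 3.36 there, 0.485 in the control, and 0.0508 and 0.172 in the donor-derived libraries, and the rule's limit on Scgb3a2 raises this ratio by its own construction. Immune cells were too few for this in the donor-derived libraries (3 and 1), where basal-gate cells had a median Scgb1a1 of 5.80 and 8.76 CP10k against 20.1 and 12.6 in members. Much Scgb1a1 (limit given below) was held by 30.5% of control members and by 6.43% and 5.07% of endogenous members at days 40 and 56. The part of cell pairs in these shares was not tested. Endogenous members with little Scgb1a1 held over 2-fold more Krt4, Cldn3 and Bpifa1 than basal-gate cells (values below), picked from 13 such genes after they were seen. Krt8 was 511 and 612 CPM in these members against 204 and 300 CPM in basal-gate cells. The rule divides members from basal-gate cells by Scgb3a2, so this contrast is a description and cannot decide the name. Other club genes were mixed at days 40 and 56. Cyp2f2 was 4703 and 5008 CPM in members with little Scgb1a1 against 4711 and 4962 CPM in basal-gate cells. Scgb3a1 was 19.4 and 51.0 against 35.8 and 40.0 CPM. Higher in both were Reg3g, at 346 and 215 against 109 and 28.7 CPM, and Lypd2, at 1005 and 1108 against 645 and 647 CPM. These examples were also picked after they were seen. Since the markers are mixed and 76.9% or more of the Krt5 cells of each host library meet the rule, these cells are called Krt5 and Scgb3a2 cells below, by the genes that chose them, and not intermediates.

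A second kind of member carried more Scgb1a1. At 50 CP10k or more lay 21 of 46 donor-derived members of day 40 (45.7%, exact interval 30.9 to 61.0) and 75 of 228 of day 56 (32.9%, 26.8 to 39.4). In endogenous members it was 24 of 373 (6.43%, 4.17 to 9.42) and 14 of 276 (5.07%, 2.80 to 8.36), and in control members 46 of 151 (30.5%, 23.2 to 38.5). The shares of both donor-derived libraries and of the control were above those of both endogenous ones, with no test, since the intervals cover counting error within 1 library. In the host libraries, Scgb1a1-high cells made up more of the members with much Scgb3a2: at 200 CP10k of Scgb3a2 or more they were 8 of 31 and 8 of 33 endogenous and 19 of 35 control members, and under 50 CP10k 4 of 183, 2 of 121 and 3 of 39. In donor-derived members of day 40 they were 17 of 36 under 50 CP10k of Scgb3a2 and 4 of 10 from 50 to 200 CP10k. No member of that library reached 200 CP10k. At day 56 they were 38 of 157 under 50 CP10k and 6 of 7 at 200 CP10k or more. The level of Scgb1a1 is a range and not a type: 4, 33, 12, 12 and 18 members had between 20 and 100 CP10k of it. In these Scgb1a1-high cells of the donor-derived libraries Krt5 was 516 and 649 CPM, with 1761 and 1751 CPM in other members, and Trp63 was 58.5 and 96.1 against 238 and 196 CPM. Scrublet, a doublet caller, marked 5, 3, 3, 3 and 2 members, of which 4 of the 5 in the donor-derived library of day 40 were Scgb1a1-high. The median depth of Scgb1a1-high members was 23739 UMIs in that library, against 10943 in its other members, and 12979 against 9780 in donor-derived cells of day 56. The part of cell pairs in these cells was not tested, so results below are also given without them.

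**Figure D2:**
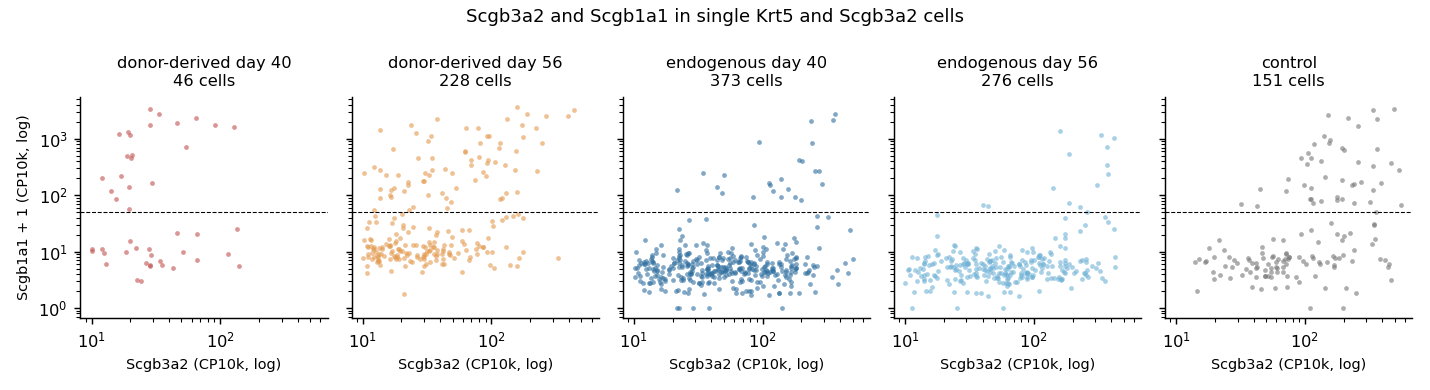
Each point is 1 Krt5 and Scgb3a2 cell, with its Scgb3a2 (horizontal, CP10k, log axis) and its Scgb1a1 plus 1 (vertical, CP10k, log axis) in a panel per library; the dashed line marks 50 CP10k of Scgb1a1. Most endogenous cells lie low in the panel, with 24 of 373 and 14 of 276 on or above the line, where 21 of 46 and 75 of 228 donor-derived cells and 46 of 151 control cells lie.

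Some members of the donor-derived library of day 40 went against its label. Of its 46 members, 10 held more UMIs of 6 genes high in host cells (Sult1d1, Cdkn1c, Lgr6, Ugt2b34, Slc16a11 and Vsnl1) than of 5 genes high in donor cells (Cdkn2a, Cryab, Plet1, Calr3 and Aim2), and all 10 were among the 25 with little Scgb1a1. EGFP, the reporter behind the GFP gate, had a UMI in 1 of these 10 and in 20 of the 34 members with more donor-gene UMIs. At day 56 the count was 6 of 228. In endogenous libraries 368 of 373 and 267 of 276 members held more of the host genes. These 11 genes were picked from earlier results of the same cells, so this is a description. EGFP was seen in 21 of 46 donor-derived members of day 40 (45.7%) and in 104 of 228 of day 56 (45.6%), and in 0 of 373, 0 of 276 and 0 of 151 endogenous and control members, which allows shares of cells with an EGFP UMI of up to 0.804%, 1.09% and 1.99% (3 cells of each total). These are not limits on cells that carry the reporter, since most donor-derived members, sorted for GFP, showed no EGFP UMI. Thinned to 5000 UMIs, the donor-derived shares were 15.6% and 28.7%. The second reporter sequence, mCherry, was seen in 5 and 20 donor-derived members. With donor-derived cells restricted to those with an EGFP UMI, the members' share of Krt5 cells was 5.13% at day 40 and 22.7% at day 56.

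Beside basal-gate cells (the Krt5 cells under 10 CP10k of Scgb3a2), the Krt5 and Scgb3a2 cells differed in few other genes. This contrast is the rule's own and has no test. Of 2707 genes at a mean of 50 CPM or more, 11 (0.406%) were at least 2-fold higher in members in all 4 recipient libraries and 0 were lower. The 11 were led by Scgb1a1 itself, the iron-binding defence protein Ltf, the secretoglobin Scgb3a1, the tight junction gene Cldn3 and the antibody transporter Pigr. Scgb1a1, for instance, was 85635, 35275, 7583 and 3056 CPM in members against 1901, 1718, 488 and 511 CPM in basal-gate cells (donor-derived day 40 and 56, endogenous day 40 and 56). With the Scgb1a1-high members left out, 0 of 2748 genes were 2-fold higher and 0 lower in all 4 libraries.

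Within the endogenous libraries alone, members with little Scgb1a1 were 2-fold above basal-gate cells of the same library in 13 of 2636 genes (0.493%) and below in 2 (0.0759%). Bpifa1, a secreted defence protein of the upper airway, was 2617 and 2261 CPM in members against 79.4 and 33.7 CPM in basal-gate cells. A Bpifa1 UMI was seen in 56.8% and 39.5% of all endogenous members and in 49.1% and 25.9% of basal-gate cells. Immune cells of these libraries showed one in 39.7% and 20.4%. Cldn3 was 94.0 and 120 against 6.78 and 16.2 CPM, and Krt4, a keratin of cells leaving the basal layer, 91.3 and 88.6 against 36.8 and 12.5 CPM. The flavin monooxygenase Fmo6, the galectin Lgals3 and the surface protein Msln were also higher. Lower were the copper carrier Cp, at 66.3 and 61.1 against 181 and 175 CPM, and Ctgf, a matricellular growth factor, at 79.6 and 241 against 198 and 567 CPM. In the donor-derived libraries the same comparison gave 4 of 2822 genes higher (0.142%) and 2 lower (0.0709%). The higher ones included the sulfotransferase Sult1d1, at 329 and 38.9 against 11.1 and 6.23 CPM. Sult1d1 is also one of the host genes by which 10 members of day 40 went against their label. Lypd2 was 862 and 608 against 321 and 259 CPM. Lower were the chemokine Cxcl9 and the apolipoprotein Apoc1.

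Secretory-gate cells stood much farther off. Of 2219 genes, 136 (6.13%) were at least 2-fold higher in members in all 5 libraries and 27 (1.22%) were lower, again with no test. Higher were the basal keratins Krt14 and Krt17, Trp63, the hemidesmosome collagen Col17a1, the Notch ligand Jag2, the lipid carrier Apoe and Dapl1. Trp63 stood at 129, 156, 285, 294 and 257 CPM in members of the 5 libraries and at 0.879 to 4.40 CPM in secretory-gate cells. Lower were Scgb1a1, Scgb3a1, Bpifa1, Bpifb1, the mucins Muc5b and Muc16 and Ltf. The rule divides these gates by Krt5, so genes that go with Krt5 are higher in members in part by construction. The genes named were also picked from this contrast, so it does not place the members in the epithelium.

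Members were divided into a lower and an upper group at the median Scgb3a2 of each library, with Scgb1a1-high cells left out, to see what moved with Scgb3a2. The groups' median Scgb3a2 was 24.3 and 101 CP10k in endogenous cells of day 40, 28.0 and 110 in those of day 56 and 41.5 and 154 in the control, and their median Scgb1a1 was 3.97 and 3.97, 4.09 and 4.18, and 4.61 and 6.48 CP10k. In these 3 host libraries, 19 of 2673 genes (0.711%) were at least 1.5-fold higher in the upper group and 4 (0.15%) lower, and as the groups come from the same cells there is no test. Bpifa1 was 281, 738 and 173 CPM in the lower groups (endogenous day 40, day 56, control) and 4618, 3605 and 12560 CPM in the upper ones. Cldn3 was 38.8, 34.5 and 104 against 141, 196 and 164 CPM, and Krt4 was 52.1, 52.8 and 11.5 against 125, 120 and 47.5 CPM. The antimicrobial lectin Reg3g, the chloride channel subunit Gabrp and the detoxifying Cyp2a5 were higher too. The 4 lower genes were Apoe, the Notch-like ligand Dlk2, the receptor Gfra1 and the small proteoglycan Dcn. Dlk2 was 266, 236 and 200 CPM in the lower groups and 130, 87.9 and 95.02 CPM in the upper ones.

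Trp63 was lower in the upper group in all 5 libraries, with log2 differences of -0.34, -0.43, -0.62, -0.96 and -0.52, and Krt8, a keratin of luminal cells, was higher in all 5, by 0.19, 0.96, 0.67, 1.09 and 0.59. The basal keratins did not follow Trp63: Krt15 was higher in all 5 by 0.16 to 0.49 and Krt5 by 0.04 to 0.23. Krt14 moved both ways, by 0.52, -0.26, 0.32, -0.73 and -1.61. Within host members with little Scgb1a1, then, the upper group held more Krt8, Krt4 and Bpifa1 and less Trp63 and Dlk2. This describes genes chosen after the values were seen, in a division by a gene of the rule. The small difference in Scgb1a1 between the groups was set by leaving out the Scgb1a1-high cells. In those, Scgb3a2 came to 189, 256 and 225 CP10k of their summed UMIs (endogenous day 40, day 56, control), against 82.2, 92.3 and 107 CP10k in the cells kept. In donor-derived cells, whose groups hold 13 and 12 cells at day 40 and 77 and 76 at day 56, Bpifa1 was 24.7 and 12.7 CPM at day 40 and 0 in both groups at day 56. Over all 5 libraries 4 of 2735 genes (0.146%) were 1.5-fold higher in the upper group, namely Cldn3, Slc16a11, Krt4 and Msln, and 0 were lower.

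**Figure D3:**
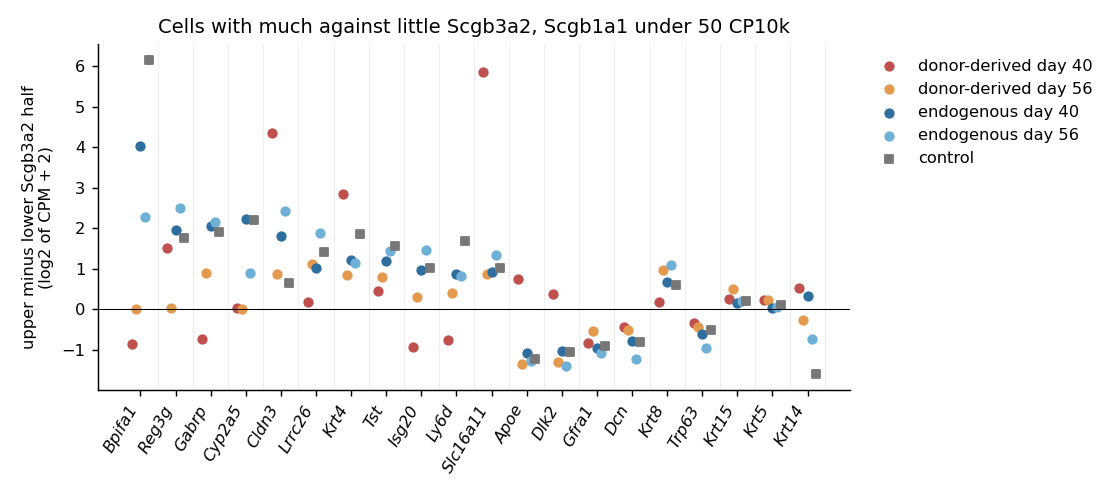
Log2 difference (2 CPM added, vertical axis) between the groups of members with more and with less Scgb3a2 for 20 genes, 1 point per library. From Bpifa1 to Slc16a11 the endogenous and control points lie above 0, from Apoe to Dcn below it, and Trp63 lies below 0 in all 5 libraries.

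Of the 6 genes given as markers of these cells, 4 are not in the rule, and they marked host members more than donor-derived ones. Bpifa1 was 42.9 and 0 CPM in donor-derived members (day 40, day 56), 4194 and 2700 in endogenous and 14734 in control members. Sult1d1 was 153 and 35.7, 1424 and 1273, and 1498 CPM in the same order. The 2 donor-derived values lay below all host values for both genes, yet their spread was wide and neither passed edgeR's quasi-likelihood test (adjusted p = 0.320 and 0.232). For Sult1d1, leaving out the donor-derived library of day 40 gave an edgeR adjusted p of 8.28e-05, leaving out that of day 56 gave 0.000273, and donor-derived cells with an EGFP UMI alone gave 0.00381. For Bpifa1 the adjusted p was 0.000969 and 0.00450 without either donor-derived library. Wherever a library is left out its group holds 1 library, which is assumed to vary like the pair in the other group, so these values stand on the spread of the 2 endogenous libraries alone. Without the endogenous library of day 40 or of day 56 the adjusted p was 0.854 and 0.782 for Sult1d1 and 0.939 and 0.881 for Bpifa1. Cbr2, a carbonyl reductase of club cells, was 3248 and 2685 CPM, then 6740 and 6289 CPM, and 11220 CPM in the same order. Its donor-derived minus endogenous log2 difference was -1.14 (SE 0.15, edgeR adjusted p = 0.00770). The peptide transporter Slc15a2 was 30.7 and 11.6, 174 and 216, and 251 CPM, a log2 difference of -3.44 (SE 0.46, edgeR adjusted p = 0.0203). That call was lost with the recipient as a block (0.116) and without the endogenous library of day 40 (0.153) or of day 56 (0.138).

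Donor-derived and endogenous members were then compared over all genes to ask how engrafted cells of this kind differ from the host's own. EdgeR's quasi-likelihood test on summed counts, 2 libraries against 2, found 527 genes past an adjusted p of 0.05 among 10543, which is 5% of those tested. Of these 252 (2.39%) were higher and 275 (2.61%) lower in donor-derived members. With the recipient as a block it called 781, 378 higher and 403 lower. Leaving out the endogenous library of day 40 or of day 56 left 140 and 193 calls, and leaving out the donor-derived library of day 40 or of day 56 gave 797 and 403. Without Scgb1a1-high members 372 genes were called, and with EGFP-positive donor-derived cells 568. Nothing says that the libraries of a group are separate cultures of donor cells, and the p-values measure the spread of 2 animals.

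Among the genes higher in donor-derived members, the small heat shock protein Cryab (chr9:50751325-50756636 in GRCm38) was measured at 207 and 180 CPM against 0.447 and 1.14 CPM, with 2.00 CPM in control members. It was higher by 7.90 (SE 0.33) on the log2 scale (edgeR adjusted p = 0.000207). The uroplakin Upk3a, a membrane protein best known from the bladder, was 254 and 149 against 1.12 and 3.43 CPM. The forkhead factor Foxq1 was 249 and 286 against 19.7 and 32.6 CPM, and the chloride channel regulator Clca3a2 was 858 and 676 against 99.5 and 76.1 CPM. Hjurp, a chaperone of the centromeric histone, was 77.3 and 115 against 8.27 and 10.9 CPM. The placenta-expressed Plet1 was 136 and 118 against 11.6 and 17.7 CPM, and Clic3 234 and 250 against 22.4 and 33.5 CPM. Their log2 differences lay between 3.09 (Plet1) and 6.48 (Upk3a). The call of Upk3a was lost with looser limits on the members and on thinned cells.

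Ly6d (chr15:74762056-74763620), a GPI-anchored surface protein, was 5527 and 3745 against 784 and 723 CPM, with 232 CPM in control members, higher by 2.62 (SE 0.23, edgeR adjusted p = 0.00493). The interferon-induced chemokine Cxcl10 was 234 and 156 against 9.84 and 21.7 CPM (edgeR adjusted p = 0.0198, and 0.0969 without Scgb1a1-high members and 0.196 with the recipient as a block). Sncg, a synuclein, was 295 and 266 against 39.6 and 67.5 CPM. Of the 54 named genes called, 16 were called in all 15 other settings tried. Among them, higher were Clca3a2, Clic3, Cryab, Foxq1, Hjurp, Plet1, Ly6d, Sncg, Gata6, Tgfb2 and EGFP, and lower were Cbr2, Cdkn1c, Hpgd and Mall. The EGFP call was set in advance by the sort on GFP and is no finding.

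**Figure D4:**
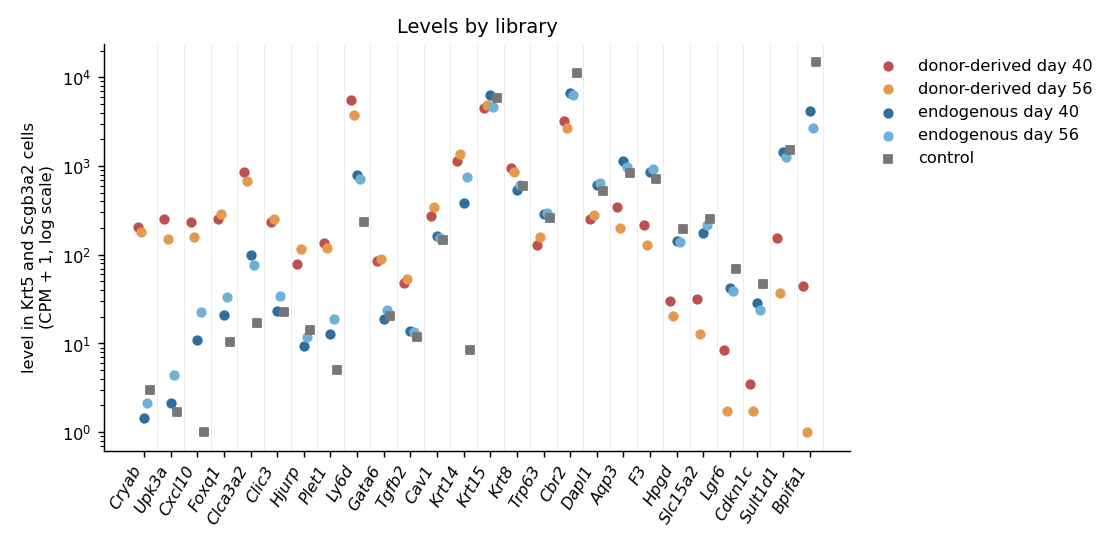
Level of 26 genes in Krt5 and Scgb3a2 cells (vertical axis, CPM plus 1, log scale), 1 point per library: circles for the donor-derived and endogenous libraries, a square for the control. From Cryab to Cav1 both donor-derived points lie above both endogenous ones, from Trp63 to Bpifa1 below them. Cryab, for example, is at 207 and 180 CPM against 0.447 and 1.14 CPM.

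Among the genes lower in donor-derived members, Hpgd, which inactivates prostaglandins, was 29.5 and 19.7 against 140 and 138 CPM, with 196 CPM in control members, a log2 difference of -2.62 (SE 0.24, edgeR adjusted p = 0.00272). Mall was 24.5 and 14.6 against 86.5 and 85.3 CPM, and the cell cycle inhibitor Cdkn1c was 2.45 and 0.728 against 27.3 and 22.6 CPM. Tissue factor (F3), which starts blood clotting, was 217 and 126 against 861 and 928 CPM, a log2 difference of -2.40 (SE 0.30, edgeR adjusted p = 0.0109). Its adjusted p was 0.287 without Scgb1a1-high members and 0.000112 with EGFP-positive donor-derived cells. The fatty acid carrier Cd36 was 2.45 and 1.46 against 35.8 and 44.1 CPM, and Usp53 was 39.3 and 29.8 against 140 and 98.1 CPM. The call of Cd36 was lost with looser limits on the members and that of Usp53 without Scgb1a1-high members.

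Of 20 basal cell markers outside the rule, 5 were lower in donor-derived members, 1 was higher and 14 did not pass, beside 2.61% lower and 2.39% higher over all genes. Their median log2 difference was -0.30 against -0.002 over all genes. Trp63 was 129 and 156 against 285 and 294 CPM, a log2 difference of -1.04 (SE 0.16, edgeR adjusted p = 0.0137). The water channel Aqp3 was 347 and 197 against 1131 and 975 CPM, Dapl1 255 and 281 against 603 and 637 CPM, Dlk2 92.0 and 60.8 against 179 and 148 CPM, and the nerve growth factor receptor Ngfr 17.2 and 24.4 against 62.6 and 50.4 CPM. These 5 were picked by their call, so the lack of overlap between their groups adds nothing to it. Higher was the caveola protein Cav1, at 274 and 349 against 160 and 152 CPM. Without Scgb1a1-high members 2 were lower and 1 higher, with adjusted p = 0.1199 for Trp63 and 0.481 for Aqp3. Leaving out an endogenous library took the adjusted p of Trp63 to 0.1205 (day 40) and 0.105 (day 56) and that of Aqp3 to 0.133 and 0.0751. Dapl1 (0.0599 and 0.0596), Dlk2 (0.279 and 0.106) and Cav1 (0.192 and 0.201) were lost the same way, Ngfr only without day 40 (0.139), and Dlk2 also without the donor-derived library of day 56 (0.105). Krt15 was 4502 and 4901 against 6381 and 4586 CPM, and Krt14 was 1140 and 1372 against 381 and 746 CPM; neither passed (edgeR adjusted p = 0.556 and 0.149), though Krt14 did with the recipient as a block (0.00686) and without the endogenous library of day 56 (0.0118).

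Secretory markers outside the rule gave 0 higher and 2 lower (Cbr2 and Slc15a2) of 18 tested, beside 2.39% higher and 2.61% lower over all genes. At an edgeR unadjusted p under 0.05, 2 were higher and 5 lower, and DESeq2 called 2 higher and 3 lower. Without Scgb1a1-high members 4 were lower and 1 higher of 16. Scgb1a1 itself was 85635 and 35275 against 7583 and 3056 CPM over all members (edgeR adjusted p = 0.276). In members under 50 CP10k it was 928 and 1178 against 517 and 542 CPM, a difference that passed there (0.0149). Basal-gate cells showed the like, with 1901 and 1718 against 488 and 511 CPM, and free RNA of the library was not separated from it. Of luminal keratins and junction genes, E-cadherin (Cdh1) was higher and Krt4 lower of 15 tested, and 1 call a direction in so short a list says little about the list. Krt4 was 51.5 and 28.4 against 92.1 and 89.3 CPM, just past the threshold (edgeR adjusted p = 0.0499). It was lost without either endogenous library (0.290 and 0.210) and without the donor-derived library of day 56 (0.0986), and Cdh1 without either endogenous library (0.398 and 0.321). Krt8 was 942 and 859 against 543 and 617 CPM without passing (0.0687).

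Among Notch pathway genes, the route by which basal cells become secretory, 1 was higher and 1 lower of 14 tested. With 2.39% higher and 2.61% lower over all genes, 1 call a direction says little about the list. Hey1, a target of the pathway, was 2.45 and 0.728 against 13.6 and 16.9 CPM, a log2 difference of -3.72 (SE 0.54, edgeR adjusted p = 0.0111). That call was lost without the donor-derived library of day 56 (0.0931) or the endogenous one (0.0519). Nrarp, a target that also restrains the pathway, was 6.14 and 12.01 against 1.12 and 1.43 CPM, higher by 2.91 (SE 0.51, 0.0220), and lost in the same cases (0.323 and 0.105) and without the endogenous library of day 40 (0.163). The donor-derived values of Hey1 and the endogenous values of Nrarp rest on a few UMIs each, in summed counts of 814916 to 4472867 UMIs. Both differences thus lie near the floor of counting. The receptor Notch1 was 66.3 and 93.6 against 65.7 and 59.8 CPM, and the ligand Jag2 72.4 and 99.7 against 125 and 111 CPM. The target Hes1 was 441 and 566 against 283 and 457 CPM. Notch1, Jag2 and Hes1 did not pass.

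Of 17 airway lineage transcription factors tested, 3 were higher and 0 lower, beside 2.39% higher and 2.61% lower over all genes. At an unadjusted p under 0.05, 3 were lower, and DESeq2 called 0 lower. Gata6, an endoderm and lung factor, was 83.4 and 88.1 against 17.7 and 22.6 CPM, higher by 2.08 (SE 0.19, edgeR adjusted p = 0.00278). Foxa2 was 11.04 and 6.55 against 0.671 and 0.858 CPM, and Foxp1 92.0 and 143 against 65.1 and 52.6 CPM. Without an endogenous library neither passed (0.209 and 0.142 for Foxa2, 0.165 and 0.323 for Foxp1), nor without the donor-derived library of day 56 (0.0789 and 0.160), and Foxa2 also failed without that of day 40 (0.0718). The lung factor Nkx2-1, at 72.4 and 59.3 against 103 and 99.3 CPM, and Sox2, at 222 and 168 against 298 CPM in both endogenous libraries, did not pass (0.104 and 0.151).

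Xenobiotic enzymes split: 6 were lower and 2 higher of 35 tested, beside 2.61% lower and 2.39% higher over all genes. The lower ones included Fmo1, Gstt1, the glucuronyl transferase Ugt2b34 and Cbr2, and higher were the glutathione transferase Mgst1 and the aldo-keto reductase Akr1b8. Mgst1 was 771 and 894 against 245 and 296 CPM, higher by 1.61 (SE 0.16). Fmo1 (edgeR adjusted p = 0.0443) was called in 5 of the 14 other settings that gave it a value, and was lost without any 1 of the 4 libraries (0.0523 and 0.266 for the donor-derived, 0.112 and 0.400 for the endogenous ones) and in DESeq2 (0.147). Gstt1 was lost without the donor-derived (0.179) or the endogenous (0.145) library of day 56. Ugt2b34 was lost without either endogenous library (0.506 and 0.470), with the recipient as a block (0.133), in DESeq2 (0.0630) and without Scgb1a1-high members (0.213). Without Scgb1a1-high members 7 of 32 were lower and 0 higher, while over all 10120 genes tested there 182 were higher and 190 lower.

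Transcripts of mitochondrial DNA were lower in 6 of 13 and higher in 0, with a median log2 difference of -0.59. Over all genes 2.61% were lower and 2.39% higher. For example, mt-Nd2, a subunit of respiratory complex I, was 2378 and 2909 against 4542 and 4235 CPM, a log2 difference of -0.75 (SE 0.12, edgeR adjusted p = 0.0151). At an unadjusted p under 0.05, 12 were lower and 0 higher, and DESeq2 called 2 lower and 0 higher. Without an endogenous library mt-Nd2 did not pass (0.133 and 0.0624). The median mitochondrial share of a member's UMIs was 3.59% and 4.17% in donor-derived, 5.57% and 5.10% in endogenous and 6.22% in control libraries, and the part of RNA quality was not tested.

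The signalling lists held few calls, and over all genes 2.39% were called higher and 2.61% lower. In the TGF-beta and BMP list the ligand Tgfb2 was higher, at 46.6 and 52.8 against 13.0 and 12.3 CPM, and the decoy receptor Bambi and the inhibitor of differentiation Id4 were lower, of 17 tested; without an endogenous library both were lost (0.165 and 0.0856 for Bambi, 0.0657 and 0.0649 for Id4), and Bambi also without the donor-derived library of day 56 (0.148). In the Wnt list only Lgr6, a stem cell receptor for R-spondins, passed of 17, at 7.36 and 0.728 against 41.1 and 38.3 CPM, and not without an endogenous library (0.258 and 0.213). Heat shock genes other than Cryab did not pass, 10 of 11 tested, and of 7 cell cycle inhibitors Cdkn1c was lower and 6 did not pass. Of 15 immediate early genes Fosb was lower, at 28.2 and 25.5 against 55.0 and 68.4 CPM, with an adjusted p of 0.0681 and 0.142 without an endogenous library and 0.0992 without the donor-derived library of day 56. Of 17 injury and repair genes F3 was lower, and of 8 goblet and mucin genes Fcgbp was higher. The Fcgbp call (edgeR adjusted p = 0.0109) was lost without the endogenous library of day 56 (0.0555), on thinned cells (0.0593) and without Scgb1a1-high members (0.180).

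Of 27 interferon response genes 2 were higher (Cxcl10 and Ifi47), with a median log2 difference of 1.07, and 11 were higher at an unadjusted p under 0.05. Over all 10543 genes 2.39% were called higher, and 837 were higher at an unadjusted p under 0.05. Ifi47 was lost without either endogenous library (0.297 and 0.0784). Of 7 MHC class II genes 0 were called by edgeR, with 3 higher at an unadjusted p under 0.05 and 1 higher in DESeq2, and their median difference was 1.09. Cd74, the class II invariant chain, was 5695 and 2690 against 1199 and 2021 CPM, with an edgeR adjusted p of 0.405. Of 10 antimicrobial genes 0 were called by edgeR, with 2 higher at an unadjusted p under 0.05 and 2 higher in DESeq2. Their 2 donor-derived libraries differed widely: Reg3g was 1184 CPM at day 40 and 0.728 CPM at day 56.

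The same test in the other gates asked whether the donor-derived change of Krt5 and Scgb3a2 cells differed from that of other cells. Of 494 genes called in members and tested in basal-gate cells too, 319 were also called there, all 319 in the same direction. Of 459 tested in secretory-gate cells 337 were also called, 335 in the same direction. Over all genes tested in both, basal-gate cells had 580 calls of 10381 and secretory-gate cells 1307 of 10119. The gates' own numbers of calls differ, so both counts shared with members cannot be ranked against each other. The gates share libraries and animals, so their changes are not independent. The test of the difference, an interaction of gate and group with the library as a fixed term, called 26 of 11111 genes (0.234%) against basal-gate cells, of which 24 (0.216%) had a more positive donor-derived change in members and 2 (0.018%) a more negative one. Without Scgb1a1-high members it called 9. On simulated counts this test recovered 11.9% of genes changed 2-fold, so few calls do not mean equal changes. Against secretory-gate cells it called 226 of 11605 genes (1.95%), 126 (1.09%) more positive and 100 (0.862%) more negative, and DESeq2 called 55.

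Against basal-gate cells, Cp was 476 and 194 against 76.9 and 64.1 CPM in members, while basal-gate cells held 247 and 139 against 181 and 175 CPM. The difference of the changes was 2.13 (SE 0.20, edgeR adjusted p = 0.000178), and without Scgb1a1-high members it was 0.88 (0.0734). Psca, a GPI-anchored surface protein, was 1217 and 225 against 42.0 and 38.6 CPM in members and 714 and 84.9 against 67.8 and 81.2 CPM in basal-gate cells. Cp, Cyba, Ifit3, Psca, Reg3g, Ly6d and Mt1 were named by size for this difference, and none of them was called without Scgb1a1-high members. Ly6d went the other way by a small amount: its donor-derived change was 2.62 in members and 3.20 in basal-gate cells, a difference of -0.56 (SE 0.09, edgeR adjusted p = 0.0112), which DESeq2 did not call.

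Against secretory-gate cells, the donor-derived change differed in either direction. Cav1, a caveola protein, was 274 and 349 against 160 and 152 CPM in members and 43.8 and 57.1 against 7.23 and 5.99 CPM in secretory-gate cells, so its donor-derived change was 0.98 in the former and 2.62 in the latter. The difference was -1.64 (SE 0.20). The laminin chain Lamb3 was 114 and 167 against 166 and 161 CPM in members and 16.2 and 17.8 against 5.65 and 1.87 CPM in secretory-gate cells. In the other direction, Sec14l3 was 68.7 and 84.5 against 63.0 and 94.7 CPM in members and 124 and 134 against 488 and 457 CPM in secretory-gate cells, and the surfactant protein Sftpb was 24.5 and 110 against 33.1 and 22.3 CPM in members and 63.4 and 145 against 241 and 140 CPM there. Cav1, Lamb3, Sec14l3 and Sftpb were called in every setting tried for that difference.

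**Figure D5:**
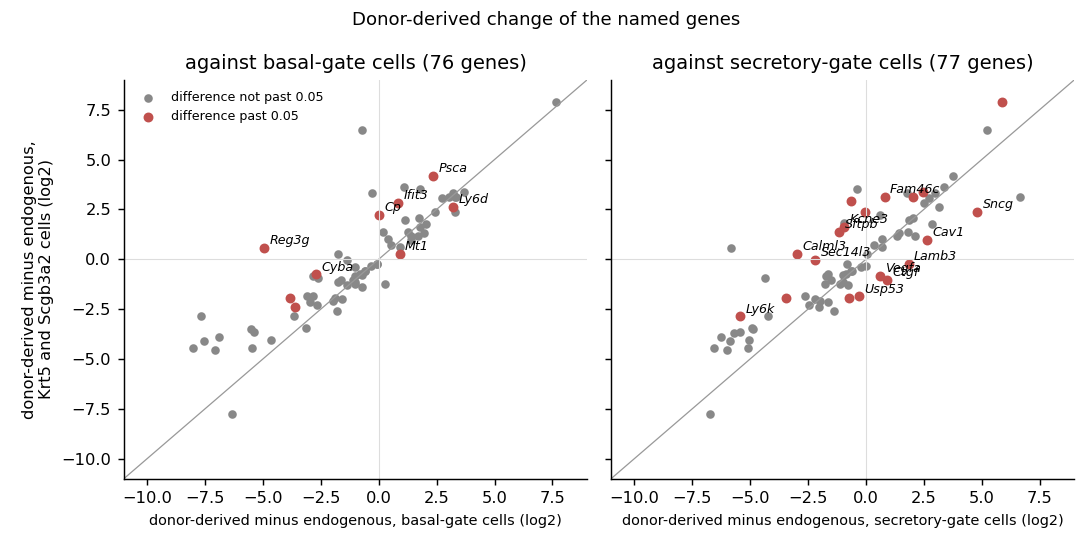
Donor-derived minus endogenous log2 change of the named genes tested in both gates, in Krt5 and Scgb3a2 cells (vertical) against the same change in basal-gate (left) and secretory-gate cells (right); the grey line marks equal changes, and red points passed the test of the difference at 0.05. Reg3g lies far above the line on the left and Cav1, Lamb3 and Sncg lie below it on the right.

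Endogenous members were set beside control members with no test, since the control is 1 library. Of 2733 genes, 65 (2.38%) were at least 2-fold apart in both recipients, 47 (1.72%) higher and 18 (0.659%) lower in endogenous members. Of 5 MHC class II genes at the level counted, 5 were higher, and of 10 interferon response genes 9 were, with median log2 differences of 3.75 and 2.83 against 0.03 over all genes. Cd74 was 1199 (exact Poisson interval 1167 to 1231) and 2021 (1975 to 2069) CPM at days 40 and 56 against 78.8 (65.2 to 94.4) in the control. The GTPase Iigp1 was 179 and 230 CPM against 0 counts in the control, where 3 counts would be 2.00 CPM, and the guanylate-binding protein Gbp2b 101 and 104 against 2.00 CPM. H2-Q6 and H2-Q7, class I genes with near-identical copies between which reads may be divided, were 136 and 169 against 0.668 CPM and 649 and 848 against 2.00 CPM.

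Krt14, a basal keratin raised after injury, was 381 (363 to 399) and 746 (718 to 775) CPM in endogenous members against 7.35 (3.67 to 13.1) CPM in control members, and 1140 and 1372 CPM in donor-derived ones. Lower in endogenous members were Scgb1a1, Scgb3a1, Muc5b, Sftpa1, Cyp2a5 and Cd36. Scgb1a1 was 7583 and 3056 against 30338 CPM, but 517 and 542 against 704 CPM without Scgb1a1-high members, which made up 30.5% of control members. Without them 59 of 2812 genes (2.1%) were past the fold, 50 (1.78%) higher and 9 (0.32%) lower, and of the 6 lower genes named only Cd36 still was, at 20.6 and 38.5 against 86.4 CPM. Bpifa1 was 4194 and 2700 against 14734 CPM, and 2617 and 2261 against 6004 CPM without them. Animal, injury and library cannot be told apart in this comparison.

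Markers of other cell types were summed in the members of each library. Ciliated markers (10 genes) came to 146 to 347 CPM, hillock markers (9) to 57.4 to 249, tuft markers (8) to 8.50 to 119, ionocyte markers (8) to 24.0 to 108, neuroendocrine markers (7) to 0.728 to 46.8 and endothelial and muscle markers (8) to 1.23 to 12.3. Immune markers (12) came to 496 and 41.9 CPM in donor-derived, 217 and 199 in endogenous and 562 in control members. Most of each sum was the single gene Lyz2, at 495 and 40.0, 186 and 143, and 490 CPM in the same order. Ptprc was at 0 in both donor-derived libraries, and leaving out members with a Ptprc or Tyrobp UMI gave 535 calls in place of 527. In the donor-derived library of day 40, 10 of the 12 were at 0. Microfold markers (8) came to 1275 and 356, 528 and 564, and 302 CPM, and submucosal gland markers (9, Krt14 and Ltf among them) to 3437 and 1523, 579 and 962, and 406 CPM, with the gland factor Sox10 at 0 in all 5. Their part in the results was not tested. Of 8 fibroblast and cartilage markers 7 were at 0 in every library and only Dcn was present, at 280 to 411 CPM. Cell division genes (8) came to 8.02 to 22.8 CPM.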

How the data were processed

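Single-cell RNA of sorted tracheal cells was sequenced in 5 libraries on the 10x Chromium. The authors deposited UMI counts per gene and cell barcode, whole numbers not normalized, per the file headers and values. Seurat, STARsolo and Cell Ranger, with builds GRCh38 and GRCm38, are listed by the submitters' processing notes; their roles, versions and the calling of cells are not given in the sources used here, and free RNA or doublets left by them would enter every count. Barcodes with at most 10% of UMIs on human features, at least 500 mouse genes and under 20% mitochondrial UMIs were kept, 6602 of 6832. Scrublet marked 48 cells (0.727%), left in by default. The members and the 17 gene lists were chosen with earlier results of these data known. Groups follow the labels.

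Members' counts were summed per library (814916 to 4472867 UMIs). edgeR 4.0.16 (TMM scaling, its filter on low counts, quasi-likelihood test, Benjamini-Hochberg over all genes tested) compared 2 donor-derived with 2 endogenous libraries, and a model with a gate-by-group term and the library as a fixed term compared that change between gates. SE is the size of the log2 difference over the square root of F, which is approximate. p-values measure the spread of 2 libraries a group. Libraries of a day come from 1 recipient: after subtracting group means they correlated at 0.194 over 2674 genes, and the recipient was used as a block in an alternative. Contrasts without a test used genes of at least 50 CPM, 2 CPM added and a 2-fold limit (1.5-fold between the groups divided by Scgb3a2). Named genes were, per tested comparison and direction, the 10 largest called log2 changes at a mean of 50 CPM or more (6 for each difference between gates), up to 4 called genes a list, the 6 largest folds per direction past the fold against the control, the given markers, the genes of the rule, the reporters, and Scgb1a1, Krt15, Krt14, Trp63, Krt8, Krt4 and Epcam. Ranking by size passed over gene models and genes of mitochondria or ribosomal proteins. Genes named from contrasts without a test, from the division by Scgb3a2 and from lists without a call were chosen after their values were seen. On simulated counts, with the same spread for every gene, the member comparison recovered 47.8% of 67 genes changed 2-fold and made 11 false calls among 10567 genes. The tests of the difference recovered 11.9% of 67 such genes against basal-gate cells and 19.4% of 67 against secretory-gate cells. Tools were Python 3.11.15, scanpy 1.11.5, scipy 1.17.1, R 4.3.3 and DESeq2 1.42.0, and coordinates are GENCODE's for GRCm38. Alternatives were DESeq2, upper-quartile scaling, no filter, the block, each library left out, doublets left out, stricter and looser limits, thinned cells and cells with immune UMIs left out. Leaving out members with Scgb1a1 at 50 CP10k or more, and donor-derived cells without an EGFP UMI, was chosen after seeing the data. Results for some genes are not reported here.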

Additional observations from a re-analysis of the deposited data

Results flagged for a closer look

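In 19 named genes the donor-derived change of Krt5 and Scgb3a2 cells differed from that of another gate by edgeR's interaction test at an adjusted p under 0.05. Values are the log2 change in members minus that in the other gate. Against basal-gate cells it was 2.13 for Cp, 2.26 for Cyba, 2.05 for Ifit3, 2.03 for Psca and 5.47 for Reg3g. It was -0.56 for Ly6d and -0.63 for Mt1. None of these passed without Scgb1a1-high members, and Reg3g was -0.28 without the donor-derived library of day 40.

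Against secretory-gate cells it was 3.22 for Calml3, 2.26 for Fam46c, 2.60 for Kcne3, 2.62 for Ly6k, 2.14 for Sec14l3 and 2.36 for Sftpb. It was -1.64 for Cav1, -1.94 for Ctgf, -2.09 for Lamb3, -2.39 for Sncg, -1.57 for Usp53 and -1.44 for Vegfa. Cav1, Kcne3, Lamb3, Sec14l3, Sftpb and Usp53 passed in every setting tried for this difference.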

How the results depend on the processing

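Donor-derived against endogenous members gave 527 called genes, 1275 with no filter on low counts and 140 to 797 with 1 library left out. With the recipient as a replicate block it gave 781. The difference from basal-gate cells gave 26, 102 with no filter, 17 to 105 with 1 library left out and 9 without Scgb1a1-high members. The difference from secretory-gate cells gave 226, 55 with DESeq2, 521 with no filter and 103 to 398 with 1 library left out. With limits of 20 CP10k of Scgb3a2 and 4 Krt5 UMIs, the share of members among Krt5 cells was 3.98% and 14.3% in donor-derived, 64.7% and 65.4% in endogenous and 87.9% in control libraries. With 5 CP10k and 1 UMI it was 12.9%, 30.3%, 84.7%, 82.0% and 97.3%, and without Scgb1a1-high members 3.64% and 16.0% in the donor-derived libraries. At 20 CPM in place of 50, 148 genes were past the fold between endogenous and control members, against 65. For single named genes, 1148 values under an alternative stayed on their side of the threshold with their direction, 188 were no longer past it, 55 passed it only there and 25 turned. Of the 25, 2 involved a call: without the donor-derived library of day 40 the change of Reg3g in members turned from 0.57 to -9.11 and its difference from basal-gate cells from 5.47 to -0.28, and with 1 library left out they ranged from -9.11 to 1.60 and from -0.28 to 5.78. Reg3g in members was also -2.07 with the recipient as a replicate block, -4.62 with the stricter and -0.83 with the looser limits, -4.78 on thinned cells and -3.84 without Scgb1a1-high members. In the remaining 23, these Reg3g values among them, neither the reported value nor the alternative was called. With 1 library left out the change in members ranged from -0.96 to 0.80 for Calml3, -4.29 to 0.48 for Cyba, -1.16 to 0.11 for H2-Q7, -0.47 to 0.025 for Krt15, -1.71 to 0.78 for Scgb3a1, -0.31 to 0.26 for Sec14l3, -1.49 to 0.64 for Sftpa1 and -0.15 to 1.91 for Sftpb. With looser limits it was -0.39 for Calml3 and 0.17 for Sftpa1, and on thinned cells 0.016 for Lamb3. Without Scgb1a1-high members it was -0.13 for Calml3, 0.020 for Lamb3 and 0.21 for Sec14l3, and with EGFP-positive donor-derived cells 0.22 for Sec14l3. The cause was not tested. The 46 donor-derived members of day 40 limit every donor-derived value.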
